A study of Mus musculus with 2 samples.

Results

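Imprinted genes, which are transcribed mainly from the copy inherited from 1 parent, were examined by chromosomal cluster in the neural tube of the mouse embryo. The 43 members were taken by their GENCODE mouse gene symbols, and 42 of them were found among the 43346 genes of both gene tables. Peg13 was not analysed here. The members fell into 16 clusters or single loci on 10 chromosomes, with 16 members on chromosome 7. By the copy that textbooks give as expressed, 22 measured members were paternal, 11 maternal and 7 maternal in some tissues only, while in 2 (Gnas and Grb10) the expressed copy depends on the promoter.

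The RNA came from neural tube of B6NCrl mouse embryos at embryonic day 11.5, and the series held 1 group of 2 libraries that the labels name biological replicates. Replicate 1 pooled 109 embryos and replicate 2 pooled 88, with males and females mixed, and no treatment or second genotype was studied. Each library was made from 10 ng of RNA longer than 200 bases with spike-in RNAs added. Because the embryos were of a single strain and were pooled, the parental copy was not measured, and every statement on the expressed copy below is background.

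Imprinting is set in the germ line, where DNA methylation is laid down on control regions in only the egg or only the sperm. After fertilisation the zinc finger proteins ZFP57 and ZFP445, with TRIM28, keep the methylation on the marked copy, and the nearby genes are then expressed from 1 copy, often with a long non-coding RNA on the other. Many of these genes encode regulators of growth, among them the fetal growth factor gene Igf2, the receptor gene Igf2r that removes its product, and the cell cycle inhibitor gene Cdkn1c.

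Levels are given in TPM, a transcript's share per unit length on a fixed total, which lets genes be compared, as the value in replicate 1 followed by that in replicate 2. The libraries held 27638068 and 29166901 expected counts, the estimated reads per gene, with spike-ins included. All 6 neural progenitor markers and all 6 markers of postmitotic neurons reached 1 TPM in both libraries, with summed levels of 1925 and 1995 TPM and of 1546 and 1782 TPM. Markers of blood, muscle, connective tissue, endothelium and meninges were present as well. Of 7 trophoblast markers, only Plac1 reached 1 TPM in both libraries, and Tpbpa, Gcm1 and Prl2c2 had no counts. In such whole tissue, fewer cells of a type and less RNA per cell cannot be told apart.

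Most members were present, and several were among the most abundant transcripts of the tissue. Of the 42 measured members, 34 reached 1 TPM in both libraries, or 81.0%, where 33% of all genes did. Among the 35 protein-coding members 27 did, or 77.1%, where 59.9% of protein-coding genes did. At 100 TPM in both libraries stood 13 members, where 3.61% of all genes did. The median member had 33.5 and 34.2 TPM, against 17.2 and 17.7 TPM over all genes that reached 1 TPM in both. Together the members held 0.819% and 0.774% of all gene TPM. Mest, Nnat, Gnas and Cdkn1c led, at ranks 63, 70, 75 and 128 of all genes by mean TPM.

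**Figure D1:**
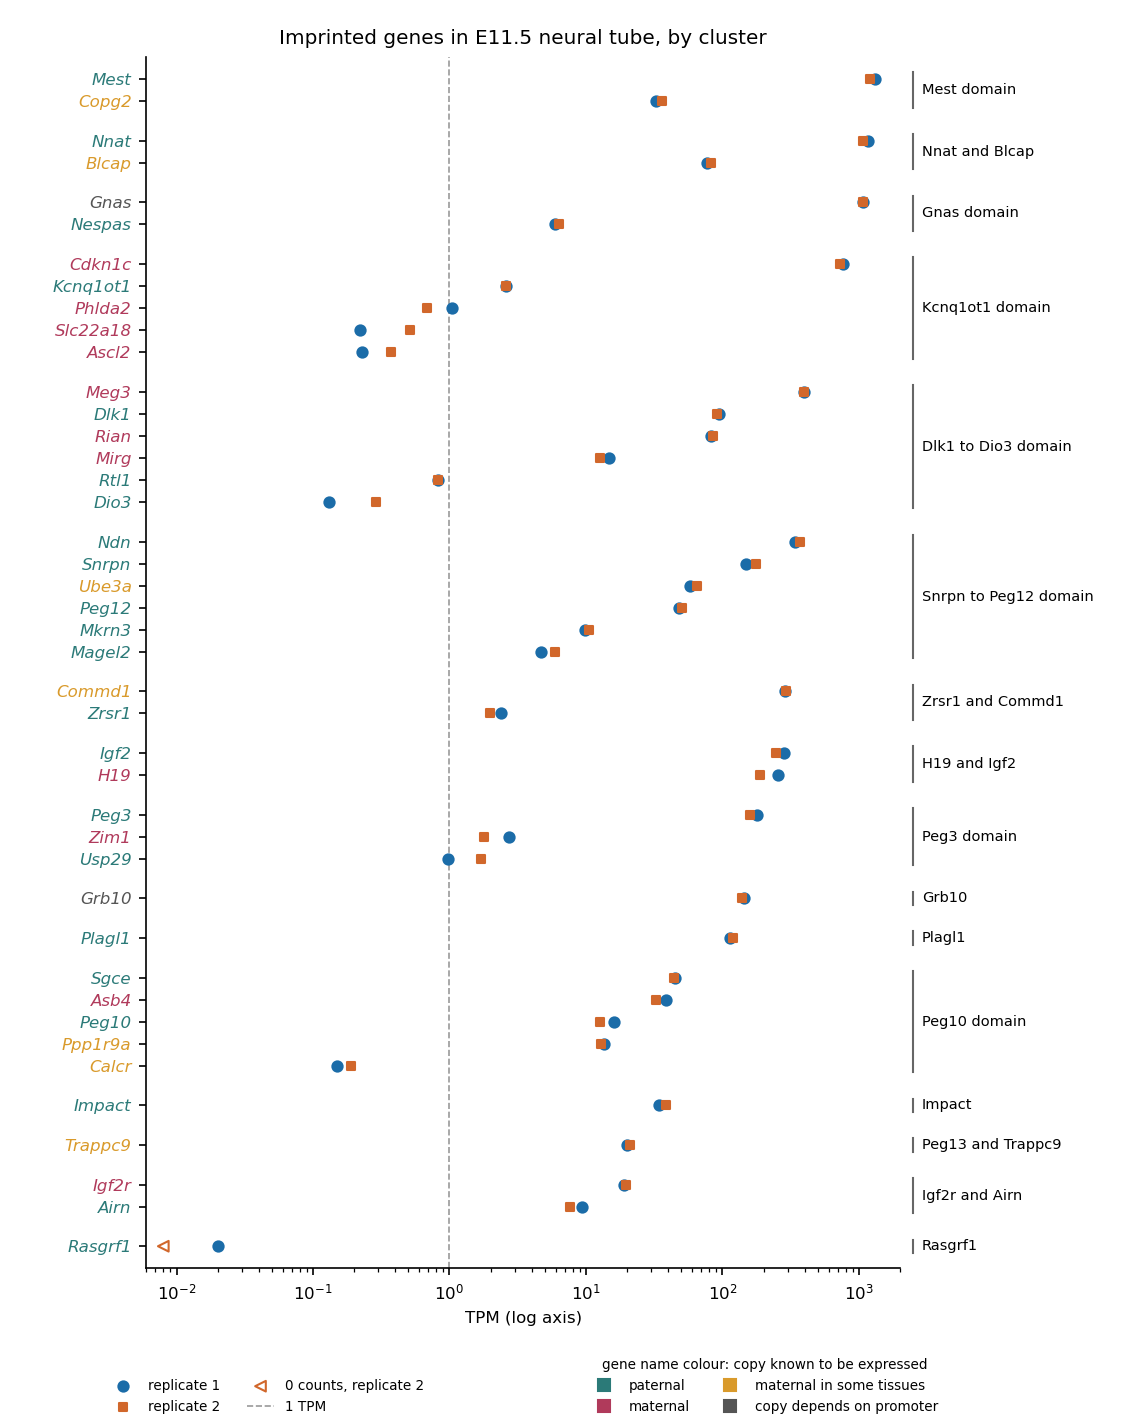
TPM of the 42 measured imprinted genes on a log axis, grouped by cluster, with a circle for replicate 1, a square for replicate 2 and gene names coloured by the copy known to be expressed. The clusters span the whole range, from Mest at 1316 and 1213 TPM to Rasgrf1 at 0.02 TPM and 0 counts, and 34 members lie right of the dashed line at 1 TPM in both libraries.

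Levels of paternal and maternal members overlapped. The 22 paternal members ran from 0.01 to 1265 TPM by mean, and 18 of them reached 1 TPM in both libraries. Of the 11 maternal members, running from 0.300 to 746 TPM, 8 did so. Medians were 25.3 and 25.8 TPM for the paternal and 18.98 and 19.5 TPM for the maternal members. The order turned when members under 1 TPM were left out, with medians (mean of both libraries) of 46.97 TPM for the paternal and 59.6 TPM for the maternal members. The 7 members that are maternal in some tissues only had medians of 32.5 and 36.0 TPM. Low and high members occurred side by side in the same cluster, as in the Kcnq1ot1 domain, which held Cdkn1c at 765 and 728 TPM and 3 further maternal genes around or below 1 TPM. When all 42 were put in order of their mean, 26 members were apart from the next lower member in both libraries and 15 overlapped with it, Igf2 with H19 and Peg3 with Snrpn among them.

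The Mest locus on chromosome 6 gave the highest level of all. Mest (chr6:30723547-30748465, plus strand, GRCm38), a paternally expressed gene of the alpha/beta hydrolase family that is abundant in embryonic mesoderm, had 1316 and 1213 TPM from 54357 and 51581 counts. Its neighbour Copg2, which encodes a coat protein of Golgi vesicles and is maternal in some tissues, had 32.5 and 36.0 TPM. Mest was thus higher by a log2 ratio of 5.21 ± 0.19 (SD, n = 2), or 36.9-fold. The genes converge on opposite strands and share 912 bases of exon, which are 23.1% of the exonic bases of Mest and 17.8% of those of Copg2. Strandedness of the libraries is not stated in the sources, and reads in those bases could not be assigned with certainty. Transcripts that start at 30738050 to 30738055 held 98.6% and 98.5% of the TPM of Mest. The 250 bases before that start, chr6:30737800-30738049, are printed because they hold the hexamer TGCCGC, the site that ZFP57 binds when its CpG is methylated. It occurs 2 times, read on the opposite strand as GCGGCA and given in capitals (RefSeq, GRCm38.p6).
Mest: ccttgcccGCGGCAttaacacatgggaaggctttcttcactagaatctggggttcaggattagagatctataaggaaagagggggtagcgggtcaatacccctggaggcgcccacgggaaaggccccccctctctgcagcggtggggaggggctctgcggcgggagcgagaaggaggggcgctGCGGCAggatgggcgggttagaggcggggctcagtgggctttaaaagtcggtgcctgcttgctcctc

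The Nnat locus on chromosome 2 came next. Nnat (chr2:157560078-157562522, plus strand), a paternally expressed gene for a small membrane proteolipid of the developing nervous system, had 1171 and 1075 TPM. It lies within Blcap, a gene on the other strand that is maternal in brain, and Blcap had 77.5 and 83.0 TPM. The log2 ratio of Nnat over Blcap was 3.81 ± 0.16 (SD, n = 2), or 13.99-fold.

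At the Gnas locus, also on chromosome 2 (chr2:174284320-174346744, plus strand), nearly all of the transcript came from the start of the ordinary Gs alpha subunit. Gnas encodes the stimulatory G protein subunit that couples hormone receptors to adenylyl cyclase, and it has several promoters with different imprinting. The gene as a whole had 1072 and 1068 TPM. Transcripts starting at the Gs alpha exon (174330006 to 174330287), which both copies use in most tissues, held 93.5% and 93.6% of it, or 1003 and 1000 TPM. The Nesp start (174284320 to 174285358), which makes the maternally expressed neuroendocrine secretory protein, held 2.97% and 2.99%, or 31.8 and 32.0 TPM. Exon 1A (174327570 to 174328023), a paternally expressed non-coding start, had 21.1 and 20.9 TPM. The XL start (174297859), which makes the paternally expressed large Gs alpha variant, had 6.64 and 7.65 TPM. The Gs alpha start exceeded the Nesp start by a log2 ratio of 4.97 ± 0.01 (SD, n = 2), or 31.4-fold, and the XL start by 7.13 ± 0.15, or 140.5-fold. Counting reads in place of TPM left the Gs alpha start at 93.1% and 92.9%.

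The antisense RNA Nespas, transcribed from the paternal copy across the Nesp exon, had 5.89 and 6.35 TPM from 149 and 166 counts. It shares 988 bases with Gnas on the opposite strand, which are 31.4% of its own exonic bases, so its reads there cannot be told from those of Gnas. Gnas exceeded it by a log2 ratio of 7.45 ± 0.08 (SD, n = 2), or 175-fold. Another gene, Gm20721, covers 13.1% of the exonic bases of Gnas on the opposite strand and was listed at 9.10 and 9.77 TPM. The promoters of the locus differ in sequence. The 250 bases before the Nesp start (chr2:174284070-174284319) hold 14 CpGs at 61.6% GC, and those before the Gs alpha start (chr2:174329756-174330005) hold 29 CpGs at 80.0% GC (RefSeq, GRCm38.p6). Over windows from 250 bases before to 50 after each start, the observed over expected CpG ratio was 0.650 at Nesp, 0.871 and 0.903 in the overlapping windows of exon 1A and 0.839 at Gs alpha. The order of these ratios was thus not that of the levels. The bases before the Nesp start are printed, with each CpG in capitals, as the promoter of the lowest ratio among these.
Gnas Nesp: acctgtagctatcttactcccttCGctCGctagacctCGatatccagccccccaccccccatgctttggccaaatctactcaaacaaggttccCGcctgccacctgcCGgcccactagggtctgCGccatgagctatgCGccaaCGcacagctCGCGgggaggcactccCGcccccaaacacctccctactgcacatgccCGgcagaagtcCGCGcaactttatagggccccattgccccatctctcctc

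Grb10 on chromosome 11 (chr11:11930508-12038683, minus strand) encodes an adaptor that dampens insulin and growth factor receptors. It is maternally expressed from an upstream promoter in most tissues and paternally expressed from downstream promoters in neurons. The gene had 143 and 139 TPM. The upstream start at 12037401 held 97.2 and 88.0 TPM, or 67.9% and 63.5% of the gene. Starts at 12026324 to 12026732, further down the gene, held 42.5 and 47.8 TPM, or 29.7% and 34.5%. A start between them, at 12027971, had 0.630 and 0.670 TPM.

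The downstream share of Grb10 depended on the unit. It was carried mainly by a transcript of 430 bases, on which few reads give a high TPM. Of the counts, the downstream starts held 259 and 285, or 2.96% and 3.46%, and the upstream start 95.7% and 95.1%. With transcripts under 500 bases left out, an alternative chosen after seeing the data, the downstream share of TPM fell to a mean of 0.889% and the upstream share rose to 96.5%. The promoters differ in sequence as well, and the 250 bases before the upstream start of RefSeq (chr11:12037421-12037670) and before the start between them (chr11:12027972-12028221) are shown with each CpG in capitals. There were 40 CpGs in the first and 8 in the second, at 81.2% and 54.0% GC (RefSeq, GRCm38.p6, minus strand).
Grb10 upstream: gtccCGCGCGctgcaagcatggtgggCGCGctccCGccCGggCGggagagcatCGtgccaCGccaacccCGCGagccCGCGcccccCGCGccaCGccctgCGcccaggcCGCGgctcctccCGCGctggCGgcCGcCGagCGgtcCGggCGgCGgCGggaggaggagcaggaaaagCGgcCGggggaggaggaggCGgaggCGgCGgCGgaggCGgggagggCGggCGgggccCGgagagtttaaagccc
Grb10 middle: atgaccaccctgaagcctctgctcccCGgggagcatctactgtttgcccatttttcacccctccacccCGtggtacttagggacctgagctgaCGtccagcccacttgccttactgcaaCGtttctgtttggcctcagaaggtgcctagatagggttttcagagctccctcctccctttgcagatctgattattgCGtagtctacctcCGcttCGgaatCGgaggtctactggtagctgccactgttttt

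**Figure D2:**
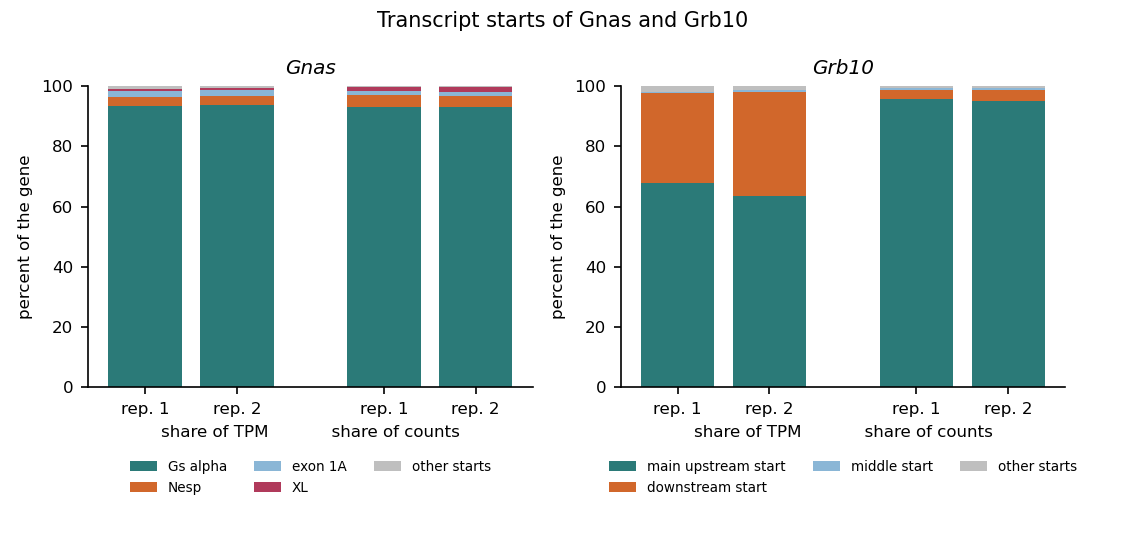
Percent of Gnas and of Grb10 at each transcript start, stacked, in replicates 1 and 2, by share of TPM and by share of expected counts. For Gnas both units place about 93% at the Gs alpha start, while the downstream start of Grb10 takes 29.7% and 34.5% of TPM but 2.96% and 3.46% of counts.

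The pair of H19 and Igf2 on chromosome 7 stood close together. H19 (chr7:142575529-142578143), a maternally expressed non-coding RNA and host of the microRNA gene Mir675, had 254 and 189.8 TPM. Igf2 (chr7:142650766-142666816), the paternally expressed growth factor gene that uses the same enhancers, had 283 and 247 TPM. The ranges of the genes overlapped between libraries, although Igf2 was the higher in each. Their log2 ratio, H19 over Igf2, was -0.27 ± 0.16 (SD, n = 2), the sole pair of 15 that was not past 2-fold in both libraries. The share of other gene pairs past 2-fold was not computed.

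Transcripts of Igf2 were spread over 5 starts with appreciable levels. The leading entry by TPM was a processed transcript of 958 bases that starts at 142653030 and held 49.9% and 50.4% of the TPM, though 28.7% and 29.7% of the counts. A coding transcript of 4722 bases from 142659489 held more of the counts, 41.0% and 38.6%. Of the exonic bases of Igf2, 62.8% are shared with Gm49394, a same-strand gene that is not in the tables, so reads of it would have counted as Igf2. The antisense gene Igf2os covers 1.71% and had 1.07 and 0.770 TPM.

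Other genes of insulin-like growth factor signalling were present. The receptor gene Igf1r, through which the Igf2 product signals, had 13.6 and 12.7 TPM, and the insulin receptor gene Insr 32.7 and 33.5 TPM. Igfbp2, a binding protein gene, had 314 and 334 TPM. Igf2r on chromosome 17 (chr17:12682406-12769664, minus strand), which encodes the clearance receptor of the same ligand and is maternal outside neurons, had 18.98 and 19.5 TPM. Of the 17 partners of imprinted products that were listed, 15 reached 1 TPM in both libraries, with Dio2 and Thrb below it. The highest of them was Cdk4, a cell cycle kinase gene, at 2074 and 2060 TPM. Igfbp2 came next, followed by the D-type cyclin genes Ccnd2 at 211 and 222 TPM and Ccnd1 at 158 and 153 TPM.

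Airn, the paternal non-coding RNA that starts inside Igf2r and runs on the opposite strand, had 9.39 and 7.59 TPM. It rested on 144 and 114 counts, over spliced models that average 981 and 935 bases. Igf2r exceeded it by a log2 ratio of 1.19 ± 0.24 (SD, n = 2), or 2.28-fold. This pair lay closest to the 2-fold line, at 1.02 in replicate 1 and 1.36 in replicate 2. In replicate 1 it fell short of 2-fold with a pseudocount of 1 TPM (0.94) or posterior mean TPM (0.98).

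In the Kcnq1ot1 domain on chromosome 7, a single coding gene was abundant. Cdkn1c (chr7:143458339-143461050, minus strand), the maternally expressed inhibitor of cyclin-dependent kinases that acts as neurons leave the cell cycle, had 765 and 728 TPM from 23961 and 23537 counts. Phlda2, a restrainer of placental growth, had 1.05 and 0.680 TPM. Slc22a18, a transporter gene, had 0.220 and 0.510 TPM from 1 and 13 counts, and Ascl2, a trophoblast transcription factor gene, had 0.230 and 0.370 TPM from 6 and 10 counts. At such counts the order of these 3 genes cannot be read. The antisense gene Gm44732, which is not in the tables, covers 30.7% of the exonic bases of Cdkn1c.

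Kcnq1ot1 itself, the long paternal RNA that lies across this domain, had 2.59 and 2.61 TPM. TPM divides by length, and its 3802 and 3943 counts were spread over an entry of 84395 bases. Cdkn1c exceeded it by a log2 ratio of 8.16 ± 0.06 (SD, n = 2), or 287-fold, the widest of the 15 pairs. Unlike Airn, whose spliced models were counted, Kcnq1ot1 was counted over a single unspliced entry, so the levels of these long RNAs do not compare directly. The coding gene Kcnq1 on the opposite strand shares 121 bases with it and had 1.28 and 1.37 TPM.

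The Dlk1 to Dio3 domain on chromosome 12 was led by the maternal non-coding RNA Meg3. Meg3 (chr12:109541001-109571726, plus strand) had 398 and 399 TPM, Rian, a host of small nucleolar RNAs, had 81.9 and 85.5 TPM, and Mirg, a host of microRNAs, had 14.9 and 12.6 TPM. The levels of these 3 maternal RNAs fell in the order in which the genes lie along the chromosome. The lincRNA gene Gm26906 covers 6.79% of the exonic bases of Meg3 on the opposite strand. Meg3 exceeded Rian by a log2 ratio of 2.25 ± 0.04 and Rian exceeded Mirg by 2.61 ± 0.21 (SD, n = 2 for each). Within Rian, the first annotated start held 1.88% and 1.34% of the TPM, and starts from 109646141 to 109646641, deep inside the gene, held 46.3% and 48.4%. In Meg3 the first start held 60.3% and 57.2%.

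Of the paternal genes of that domain, Dlk1, a membrane protein gene related to the Notch ligands, had 93.7 and 91.1 TPM, above Rian and below Meg3 in each library. Meg3 exceeded it by a log2 ratio of 2.11 ± 0.03 (SD, n = 2), or 4.31-fold. The retrotransposon-derived gene Rtl1 had 0.82 and 0.83 TPM from 89 and 93 counts. Dio3, which encodes the deiodinase that inactivates thyroid hormone, had 0.13 and 0.29 TPM from 3 and 10 counts. Mirg holds 14 microRNA hairpins and Rtl1 another 7, of which 6 lie on the opposite strand. Hairpin entries mostly had no effective length in the tables, so the microRNAs were not measured.

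The 250 bases before the Meg3 start (chr12:109540746-109540995) are shown with the 206 bases before the leading start of Plagl1 (chr10:13090582-13090787), since each holds the ZFP57 hexamer 1 time, again in the orientation GCGGCA (RefSeq, GRCm38.p6). Plagl1, a paternally expressed zinc finger gene that restrains proliferation and stands at the centre of a network of imprinted genes, had 114 and 119 TPM. Starts at 13090691 to 13091013, some of them within the printed bases, held 98.99% and 98.04% of its TPM. The leading transcript, which starts at 13090788, held 72.4% and 73.1%.
Meg3: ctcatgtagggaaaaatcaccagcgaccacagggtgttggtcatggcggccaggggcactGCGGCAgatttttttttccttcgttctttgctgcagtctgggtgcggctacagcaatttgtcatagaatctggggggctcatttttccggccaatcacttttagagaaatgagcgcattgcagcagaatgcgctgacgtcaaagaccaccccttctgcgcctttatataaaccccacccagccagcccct
Plagl1: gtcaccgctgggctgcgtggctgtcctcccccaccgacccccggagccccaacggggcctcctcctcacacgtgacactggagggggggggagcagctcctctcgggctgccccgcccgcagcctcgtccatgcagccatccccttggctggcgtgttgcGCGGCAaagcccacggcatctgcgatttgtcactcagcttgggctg

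All 6 members of the Snrpn to Peg12 domain on chromosome 7, the mouse counterpart of the Prader-Willi and Angelman region, reached 1 TPM in both libraries. Ndn (chr7:62346569-62350262), a MAGE family gene of postmitotic neurons, had 342 and 372 TPM, and its relative Magel2 had 4.66 and 5.95 TPM. Ndn exceeded Magel2 by a log2 ratio of 6.08 ± 0.16 (SD, n = 2), or 67.8-fold. Snrpn, which encodes a protein of the splicing machinery, had 149.6 and 175 TPM, of which 95.1% and 96.9% came from the start at 60005111. An upstream start at 60140219 held the rest, 7.32 and 5.38 TPM.

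Peg12, an intronless gene for an inhibitor of the kinase GSK3, had 47.96 and 50.5 TPM, and Mkrn3, a ubiquitin ligase gene, had 9.89 and 10.5 TPM. Ube3a, the ubiquitin ligase gene of Angelman syndrome that is maternal in mature neurons and expressed from both copies elsewhere, had 58.3 and 65.4 TPM. Snrpn exceeded it by a log2 ratio of 1.39 ± 0.04 (SD, n = 2), or 2.62-fold. The paternal antisense host RNA Snhg14, which shares 1803 exonic bases with Ube3a, had 30.8 and 31.7 TPM. Snurf, which shares 216 bases with Snrpn on the same strand, was listed at 95.4 and 75.5 TPM from 194 and 158 counts, and the split between the 2 entries is uncertain. Gm38393, also on the same strand, covers 27.3% of the exonic bases of Snrpn and was listed at 0.640 and 0.730 TPM. The pseudogene Gm18908 covers 6.86% of Snrpn, and Gm44560 and 9330162G02Rik cover 9.82% and 8.71% of Ube3a, each on the opposite strand and not in the tables.

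On proximal chromosome 7, Peg3 (a paternally expressed zinc finger gene) had 179.6 and 160.5 TPM from 24748 and 22750 counts. Zim1, a maternal zinc finger gene beside it, had 2.72 and 1.80 TPM, and Peg3 exceeded it by a log2 ratio of 6.26 ± 0.31 (SD, n = 2), or 76.7-fold. Usp29, a paternal gene for a deubiquitinating enzyme, had 0.980 and 1.71 TPM from 43 and 77 counts. The annotation places the starts of Peg3 and Usp29 147 bases apart, head to head. The sole Usp29 transcript in the tables starts 231 kilobases further on. Its counts cannot be split by start, so the share from the shared promoter region is not known. Zim3, not in the tables, covers 14.3% of the exonic bases of Usp29 on the opposite strand. The log2 ratio of Peg3 over Usp29 was 7.52 in replicate 1 and 6.55 in replicate 2.

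In the Peg10 domain on chromosome 6, Peg10 and Sgce start 99 bases apart, also head to head, and both are paternal. Sgce, the sarcoglycan gene of myoclonus dystonia, had 44.95 and 44.5 TPM, while Peg10, a retrotransposon-derived gene needed in the placenta, had 16.2 and 12.8 TPM. Sgce was higher by 3.11-fold, as the log2 ratio of Peg10 over Sgce was -1.64 ± 0.23 (SD, n = 2). The 1361 and 1369 counts of Peg10 hardly differed. Its TPM moved with a transcript of 1477 bases whose share was 31.8% and 11.5%, which changed the gene length behind the TPM from 4933 to 6072 bases.

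Further along that domain, Asb4, a maternal gene for a ubiquitin ligase adaptor, had 38.7 and 32.4 TPM, and Ppp1r9a, the neuronal scaffold gene neurabin 1, had 13.5 and 12.9 TPM. Calcr, the calcitonin receptor gene, had 0.150 and 0.190 TPM from 5 and 10 counts. Among the remaining loci, Commd1, a gene for a copper and NF-kappa-B regulator, had 289 and 294 TPM. The intronless paternal gene Zrsr1 lies within it on the other strand and had 2.40 and 1.98 TPM, so Commd1 was 134-fold higher, at a log2 ratio of Zrsr1 over Commd1 of -7.06 ± 0.21 (SD, n = 2). The Commd1 level rests on 2322 and 2385 counts over a mean transcript length of only 560 and 551 bases, and 25.1% and 22.5% of its TPM belonged to a retained intron transcript. The same-strand gene Gm28048 covers 4.95% of the exonic bases of Commd1 and had 4.55 and 4.76 TPM.

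Impact on chromosome 18, a paternal inhibitor of the translation kinase GCN2 that is abundant in neurons, had 34.5 and 38.8 TPM. Trappc9 on chromosome 15, a vesicle tethering gene, had 19.9 and 21.03 TPM. Rasgrf1 on chromosome 9, a Ras exchange factor gene of mature neurons, had 1 count in replicate 1 and none in replicate 2. A count of 0 allows up to 0.0541 TPM at 3 counts, so its level was at the limit of this depth.

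**Figure D3:**
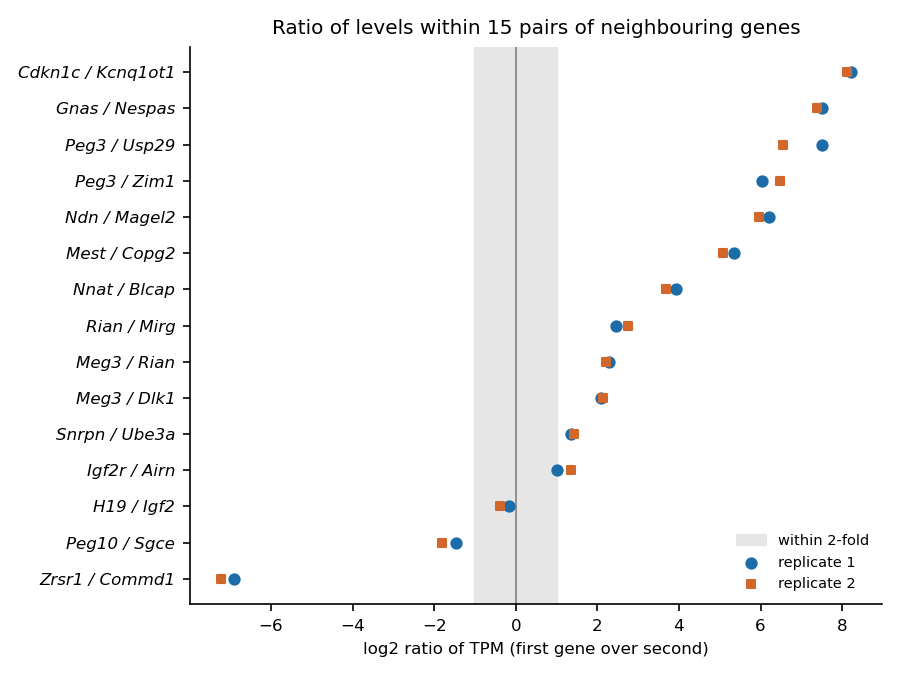
Log2 ratio of TPM within 15 pairs of neighbouring imprinted genes, the first named over the second, with a circle for replicate 1 and a square for replicate 2 and grey shading within 2-fold. In 14 pairs both libraries lie outside the shading, 12 with the first gene higher and 2 with the second, and only H19 over Igf2 lies within it. Other pairs of genes were not compared, so these counts have no background and describe the named pairs only.

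The pools differed little at most members. Replicate 2 was compared with replicate 1 on TMM-scaled counts for 41 members with at least 10 counts in 1 library. The 95% intervals cover counting error only, and with 1 library on each side no p-value can be given. Past 1.5-fold higher in replicate 2 stood 4 members (Slc22a18, Calcr, Usp29 and Dio3), where 4.87% of all genes tested did. Past 1.5-fold lower stood 1, Zim1, where 5.95% did. Of these 5, Zim1 had the most counts, 149 and 98.

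By the counting interval, 8 members were higher in replicate 2 and 14 were lower. Over all genes tested 15.6% were higher and 15.2% lower by this rule, and the members are deeper than most genes, which narrows their intervals. Among the 34 members with 200 or more counts in all, 6 lay above (17.6%) and 14 below (41.2%). Of the 12352 genes with 200 or more counts in all, 18.3% lay above and 16.7% below. This floor does not match the members to genes of like depth, and the part of depth in these shares was not tested.

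In the Snrpn to Peg12 domain, 4 of 6 members had a counting interval above 0, namely Snrpn, Ube3a, Ndn and Magel2, the last at 0.31 (interval 0.11 to 0.51). The intervals of Peg12, at 0.03 (-0.05 to 0.12), and Mkrn3, at 0.04 (-0.15 to 0.24), included 0. All 6 estimates were above 0, as were 8542 of the 17219 over all genes tested. Snrpn was higher by 0.18 (interval 0.13 to 0.24). Impact and Copg2 were also higher, by 0.13 (interval 0.04 to 0.21) and 0.12 (interval 0.02 to 0.21). All 6 markers of postmitotic neurons were higher in replicate 2 as well, from 1546 to 1782 TPM in sum. Of the 6 neural progenitor markers, 4 were higher and 2 lower on scaled counts, with 3 intervals above 0 and none below. The part of these cell types in the differences of the members was not tested.

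Among the members lower in replicate 2 were several of the most abundant. Of those with 200 or more counts in all, Zim1 had the largest difference, at -0.68 (interval -1.08 to -0.32), and Airn had -0.42 (interval -0.79 to -0.06). Both had under 150 counts a library. H19 had -0.40 (interval -0.45 to -0.35) from 6745 and 5427 counts, and Igf2 had -0.27 (interval -0.32 to -0.22). Asb4 followed at -0.27 (interval -0.36 to -0.17), Ppp1r9a at -0.23 (interval -0.35 to -0.12), Peg3 at -0.21 (interval -0.24 to -0.18) and Grb10 at -0.18 (interval -0.22 to -0.13). Mest and Nnat had -0.16 each, and Cdkn1c had -0.11 (interval -0.14 to -0.09). Of these, only Zim1 passed 1.5-fold.

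Markers of several non-neural tissues, though not all, were lower in the same library. The 5 skeletal muscle markers all had a lower level there, 391 and 326 TPM in sum, as did all 6 markers of connective tissue and paraxial mesoderm, at 609.5 and 544 TPM. On scaled counts, 4 of the 5 muscle intervals (Acta1 excepted) and all 6 of the connective tissue list lay below 0. Of 4 chondrogenic markers, 3 were lower and Matn1 had no counts, with sums of 206 and 199 TPM, and the 3 intervals lay below 0. Of 6 liver and visceral endoderm markers, 5 were lower and Apoa4 had no counts, with sums of 7.54 and 4.25 TPM. These rest on few counts. Of the 4 tested on scaled counts only Afp, from 134 and 74 counts, had an interval below 0. The others, Alb, Ttr and Apoa1, had 13 to 26 counts a library and intervals that included 0. The 5 erythroid markers summed to 10385 and 10430 TPM, with 3 higher in replicate 2. On scaled counts 1 of them was higher and 4 were lower, with 2 intervals below 0 and none above. All 5 endothelial markers had a higher TPM there, 138 and 149 TPM in sum, while their scaled counts were higher for 3 of 5 and all intervals included 0. The 5 meninges markers summed to 188.5 and 194.9 TPM. On scaled counts Aldh1a2 was higher by 0.28 (interval 0.21 to 0.36) and Cxcl12 had -0.22 (interval -0.28 to -0.15). The part of these tissues in the lower values of the members was not tested.

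**Figure D4:**
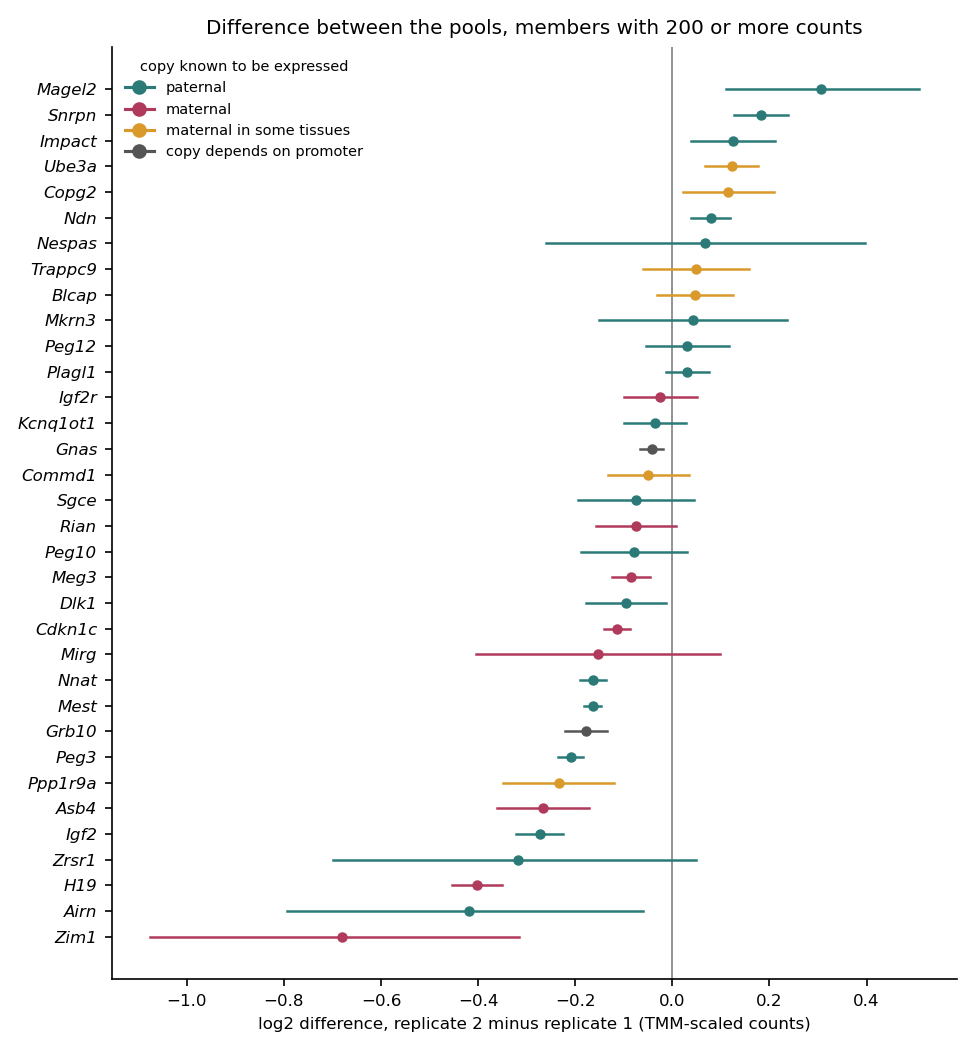
Log2 difference of TMM-scaled counts, replicate 2 minus replicate 1, for the 34 members with 200 or more counts over both libraries; points are estimates, lines are 95% counting intervals and colours give the copy known to be expressed. Magel2, Snrpn, Impact, Ube3a, Copg2 and Ndn lie above 0, and 14 members from Gnas down to Zim1 lie below it.

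The leading transcript was mostly the same in the pools. Of 26 members at 1 TPM or more in both libraries with several annotated transcripts, 25 had the same leading transcript in each. The exception was Zim1, whose leading transcript in replicate 1 held 63.0% there and 47.7% in replicate 2. Without the limit of 1 TPM, 25 of 31 members had the same leading transcript. Ascl2, Calcr, Dio3, Rasgrf1 and Slc22a18, at 0 to 13 counts a library, differed as well. The share over all genes was not computed, so these counts are not set against a background. In Gnas the leading transcript held 80.1% and 81.7%, in Mest 95.3% and 95.1%, in Igf2r 98.1% and 96.7%, and in Dlk1 71.2% and 74.8%.

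The promoter windows of the members had a higher median CpG ratio than all windows. RefSeq windows from 250 bases before to 50 after the start were matched by symbol for 34 of the 42 measured members, 51 windows in all. Windows with over 50% GC and an observed over expected CpG ratio above 0.6, here called island-like, made up 25 of the 51, or 49.0%, against 33.3% of all 32851 windows. By gene, 61.8% of members had such a window, against 35.8% of all genes. The members had 51 windows for 34 genes and the background 32851 for 27025, so members had more windows a gene in which to meet this rule. Overlapping windows, as at Mest and exon 1A of Gnas, were each counted. The background was not limited to coding genes or to genes present in the tissue. The median CpG ratio was 0.61 in members and 0.38 over all. Grb10 (upstream) and Ppp1r9a reached a ratio of 0.973, while the windows of Rian and Airn had 0 and 0.192.

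**Figure D5:**
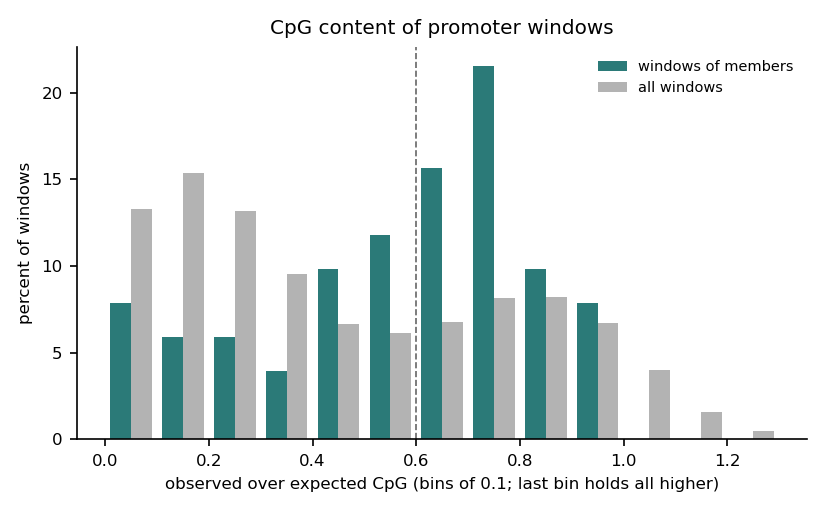
Percent of promoter windows in bins of 0.1 of the observed over expected CpG ratio, for the 51 windows of imprinted genes and for all 32851 windows of the table, with a dashed line at 0.6. The bin from 0.7 to 0.8 holds 21.6% of the members' windows and 8.14% of all windows. The bins from 1 upward hold none of the members' windows but 3.99%, 1.56% and 0.444% of all windows.

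The hexamer TGCCGC, searched on both strands, was found in 12 of the 51 windows (23.5%), against 11.6% of all windows. These belonged to 11 genes (Mest has overlapping windows), namely Nnat, Mest, Copg2, Calcr, Zim1, Snrpn, Igf2, Plagl1, Grb10, Commd1 and Meg3. In all 12 the match read GCGGCA along the gene's own strand, letters that 6.62% of all windows held. The forward letters TGCCGC were in none, where 5.65% of all windows held them. The hexamer holds a CpG, and the part of the members' higher CpG ratio in these shares was not tested. In the 250 bases before the start alone, 7 windows held the hexamer, or 13.7%, against 8.68% of all. The YY1 core GCCATNTT, also on both strands, was in 2 windows (3.92%), against 6.05% of all, and the TATA box TATAAA in 10 windows (19.6%), against 13.6%. These matches are descriptions of letters in a window and not of binding.

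Most genes of a list of imprint maintenance and reading factors, which is broader than maintenance alone, were present in the tissue. Of 24 listed genes for imprint maintenance and reading, 21 reached 1 TPM in both libraries. Trim28, the co-repressor that ZFP57 recruits, had 406 and 420 TPM, the heterochromatin protein gene Cbx5 141 and 146 TPM, Zfp57 100.1 and 107 TPM, and Uhrf1, which directs maintenance methylation, 90.8 and 101.9 TPM. Dnmt3l and Dppa3, which act in germ cells and the early embryo, had no counts. Of 35 other imprinted and neighbouring genes in the tables, 27 reached 1 TPM in both libraries, led by Cd81 at 226 and 224 TPM, Nap1l4 at 129 and 141 TPM, Nudt4 at 108 and 109 TPM and H13 at 95.3 and 97.1 TPM. Ins2 and Slc22a2 had no counts.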

How the data were processed

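Total RNA of 2 libraries of 1 group was measured. Expected counts and TPM values per gene and transcript, and the percent of a gene held by each transcript, were deposited by the authors on mm10 with GENCODE M4, per the deposited file descriptions. The quantifier was not given in the sources used. Symbols, coordinates and transcript starts came from GENCODE M21 (GRCm38), with starts within 1000 bases grouped, and promoter windows from RefSeq. The set of genes and the library sizes used for scaling exclude spike-ins (5.72% and 5.02% of counts) and entries named by a number. TPM values were used as deposited, and spike-ins held 13.2% and 11.8% of their fixed total. This unequal share enters each comparison of TPM between the pools. From rounded expected counts, TMM-scaled log2 differences with a prior count of 2 were computed for genes with 10 counts in at least 1 library with edgeR 4.0.16 (R 4.3.3). Exact binomial (Clopper-Pearson) intervals at 95% and limits of 3 counts cover counting error only, since reads here carry no molecular identifiers and are not independent molecules. DESeq2 1.42.0 size factors were an alternative. The step that gave the log2 differences between the pools was tested on simulated counts, and the other steps were not. Python 3.11.15 did the rest.

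The members and lists were chosen with earlier results of these data known. All members were named, with the 4 highest genes of each of the 3 other gene lists and up to 2 of those below 1 TPM, and genes, small RNAs apart, whose exons overlap a member. Igf1r and Insr were named for their role after their values were seen. The spread given is that of these 2 embryo pools.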

Additional observations from a re-analysis of the deposited data

How the results depend on the processing

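No paired analysis was possible because the series holds 1 group. The number of members at 1 TPM was 35 in each library alone and 37 at 0.5 TPM, and it stayed at 34 with posterior mean TPM. Leaving out members under 1 TPM raised group medians to 46.97 TPM (paternal), 59.6 TPM (maternal) and 48.1 TPM (maternal in some tissues), as the filter removes low genes, which put the maternal above the paternal median. Posterior mean TPM gave 25.1 TPM for the paternal members and a median of 587 TPM for Gnas with Grb10. Of the 15 pairs, 13 were past 2-fold in both libraries with a pseudocount of 1 TPM or with posterior mean TPM, Igf2r over Airn being the one lost, and 14 with counts per kilobase or in either library alone. Past 2-fold between the pools were 2 members, against 5 past 1.5-fold. The 1.5-fold count was 6 with no count filter, where Rasgrf1 was added, and 7 with a prior count of 0.5, a setting applied to this count after seeing the data, where Phlda2 (-0.64) and Ascl2 (0.61) were added. The Gs alpha share of Gnas was 93.4% by posterior mean, 93.0% by counts and 93.9% without transcripts under 500 bases. The Grb10 upstream share was 95.4% by counts and 96.5% without such transcripts, and the downstream share 3.21% and 0.889%. Within the 250 bases before the start, 7 windows held the ZFP57 hexamer in place of 12. With DESeq2 size factors or a prior count of 0.5, all 41 differences between the pools stayed within their counting intervals. This outcome was close to fixed in advance. The size factors moved all differences by nearly the same small amount, as for H19 from -0.402 to -0.400. The prior count moved mainly members of few counts, whose intervals are wide, as for Slc22a18 from 2.27 to 3.10 (interval 0.88 to 9.02). Over gene TPM alone, levels rose by 1.14-fold. The log2 change of Peg10 between the pools was -0.34 by TPM and -0.08 by scaled counts. No pair ratio or difference between the pools that was called changed sign under these settings, which for the differences was also close to fixed in advance. Depth limits Slc22a18, Ascl2, Dio3, Calcr, Phlda2 and Rasgrf1, which had 0 to 13 counts in a library.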
